A study of Mus musculus with 8 samples.

Results

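The genes described here are the giant protein-coding genes of the mouse autosomes, those whose annotated span (end minus start, RefSeq on build mm10) is 500 kb or more. Of 20661 autosomal protein-coding genes 215 met that length, 55 of them at 1000 kb or more, and their median annotated length was 734843 bp. The threshold fell between Edil3 (501754 bp), Dock1 (502961 bp) and Samd12 (503423 bp) on the inside and Dnm3 (495872 bp), Lrrc7 (494798 bp) and Cacna1e (493980 bp) on the outside. The rule uses annotated length and no measured value, but it was set with earlier results of these data known. They were set against the 7262 genes of 20 to 100 kb.

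The libraries came from mouse embryonic fibroblasts (MEFs), primary connective tissue cells of the embryo, in 4 groups of 2: day 1 of Etv2-induced reprogramming with the GpC methyltransferase M.CviPI (treated), day 0 treated, day 1 without the enzyme (untreated) and day 0 untreated. Etv2 is an ETS-family transcription factor known for driving endothelial and blood fates. No mouse strain, expression construct or dose is stated in the labels. Nothing there tells replicate cultures from repeat libraries of the same culture, and every p-value below measures only the spread between these libraries, which may be technical. No expression was measured, so the cell type could not be checked against its markers.

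NOMe-seq reads chromatin by letting M.CviPI methylate the cytosine of GpC wherever nucleosomes or other proteins leave DNA open, and then reading methylation after bisulfite conversion. A methylated read in a treated library therefore marks an accessible cytosine, and one in an untreated library marks methylation of other origin or failed conversion. Genes of this length are mostly intron, take many hours to transcribe, and are known chiefly from neurons, where many encode synaptic adhesion molecules, channels and scaffolds. Several also lie at common fragile sites, regions prone to breakage under replication stress.

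Each deposited line is 1 cytosine with its methylated fraction and its reads, and a call below is 1 read over 1 cytosine. Within the RefSeq promoter windows, where bases could be read, every covered cytosine in every library (6447 to 10189 per library) followed a G and was not followed by one, so these are GpC cytosines outside CpG. The body of a gene is the stretch more than 1000 bp inside both annotated ends, and its level is the methylated share of all calls there. The annotation used has no exons, so exonic and intronic sites were not separated. The 4 sequences below are the promoter windows of giant genes with calls in 2 or more treated libraries on the largest number of sites, and show what the assay reads. Each is the 250 bases upstream of a RefSeq transcription start (build mm10), written 5′ to 3′ on the gene's strand. Capitals mark the cytosines called in at least 1 treated library, as C on the strand shown and as G where the called cytosine lies opposite.
Nbea, chr3:56183702-56183951, minus strand: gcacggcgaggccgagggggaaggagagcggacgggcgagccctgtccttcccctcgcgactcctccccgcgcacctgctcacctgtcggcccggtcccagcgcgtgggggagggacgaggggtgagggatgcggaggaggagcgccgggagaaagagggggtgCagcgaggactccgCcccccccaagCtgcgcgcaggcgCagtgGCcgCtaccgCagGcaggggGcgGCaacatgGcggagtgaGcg
Trpm3, chr19:22447958-22448207, plus strand: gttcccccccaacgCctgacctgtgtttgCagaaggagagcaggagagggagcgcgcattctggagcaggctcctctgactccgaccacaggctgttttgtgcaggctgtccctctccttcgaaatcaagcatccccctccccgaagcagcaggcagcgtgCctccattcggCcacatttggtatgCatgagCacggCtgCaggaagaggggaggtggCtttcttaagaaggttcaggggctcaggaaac
Cadps2, chr6:23839422-23839671, minus strand: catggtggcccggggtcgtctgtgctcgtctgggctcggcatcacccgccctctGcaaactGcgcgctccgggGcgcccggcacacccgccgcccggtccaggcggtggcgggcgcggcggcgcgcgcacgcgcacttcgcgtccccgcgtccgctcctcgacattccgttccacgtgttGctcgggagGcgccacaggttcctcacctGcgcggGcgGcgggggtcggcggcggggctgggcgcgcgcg
Slit3, chr11:35121206-35121455, plus strand: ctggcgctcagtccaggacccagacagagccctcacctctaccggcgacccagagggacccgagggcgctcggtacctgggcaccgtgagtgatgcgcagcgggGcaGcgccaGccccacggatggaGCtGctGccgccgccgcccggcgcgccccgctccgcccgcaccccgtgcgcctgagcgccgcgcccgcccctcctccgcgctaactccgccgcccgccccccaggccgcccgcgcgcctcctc

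Nbea encodes neurobeachin, a scaffold of membrane trafficking at synapses. In its window 12 of 18 calls were methylated in day 1 treated replicate 1, against 14 of 21 in day 0 treated replicate 1 and 3 of 6 in day 0 treated replicate 2, while day 0 untreated replicate 2 had 0 of 15. Trpm3 encodes a cation channel, and its window had calls on day 1 only, 4 of 7 methylated in treated replicate 1 and 7 of 21 in treated replicate 2. Cadps2 encodes a factor that primes dense-core vesicles, with 4 of 12 calls methylated in day 1 treated replicate 1, 5 of 15 in day 0 treated replicate 1 and 0 of 18 in day 0 untreated replicate 2. Slit3 encodes a secreted ligand of Robo receptors, with 1 of 3 methylated in day 1 treated replicate 1, 9 of 18 in day 0 treated replicate 2 and 0 of 3 in day 1 untreated replicate 1. Calls were thus seen as methylated in each treated library that covered these windows and in no untreated one, but day 1 and day 0 cannot be compared at single promoters. Of 271 promoter windows of 169 giant genes, 61 had a treated call, 53 of these in a single treated library.

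Giant genes were thinly covered. In the giant bodies, which span 179 Mb, the covered sites per 100 kb were 21.0 and 21.0 in the day 1 treated libraries, 14.3 and 14.3 in the day 0 treated, 26.1 and 26.4 in the day 1 untreated, and 11.4 and 9.94 in the day 0 untreated. Genes of 20 to 100 kb had 29.2 to 64.2 sites per 100 kb over the same libraries. From 90.2% to 92.6% of giant-gene sites carried exactly 3 reads, the smallest number in the files. Over the giant bodies this left 117461 and 117869 calls in the day 1 treated libraries, 80402 and 80511 in the day 0 treated, 146047 and 147566 in the day 1 untreated and 63388 and 55718 in the day 0 untreated. A single giant gene had 7 to 2766 calls in a library. All 215 had calls in every library, 211 had at least 20 in every one, and 138 had at least 200 in every treated one. Single 1 kb blocks with more than 100 calls in any library held 0.674% to 2.08% of giant-gene calls, against 15.5% to 23.1% in genes of 20 to 100 kb.

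The bodies of giant genes had a treated level near 28.5% on day 1 and near 26.6% on day 0, below that of shorter genes, and an untreated level of a few percent or less. With the enzyme, 28.5% and 28.6% of calls in giant bodies were methylated in the day 1 libraries and 26.5% and 26.8% in the day 0 libraries (28.5% ± 0.045 and 26.6% ± 0.24, SD, n = 2 each). Without it the level was 1.01% and 0.964% on day 1 and 2.61% and 2.51% on day 0. The same libraries gave genes of 20 to 100 kb 30.3% and 30.0% (day 1 treated), 28.5% and 28.6% (day 0 treated), 1.02% and 1.02% (day 1 untreated) and 2.06% and 2.16% (day 0 untreated).

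The enzyme set the level. Treated minus untreated came to 27.6 percentage points on day 1 and 24.1 on day 0, and the mean difference of 25.8 points had p = 0.0556, the smallest an exact two-sided permutation of 8 libraries within days can give. Between days, the treated level was 1.90 points higher on day 1 and the untreated level 1.57 points lower. The 2 libraries of each day did not overlap with those of the other day in either case, and the treated level of giant genes was higher on day 1 on 17 of 19 autosomes (all but 7 and 18) and the untreated level lower on 19 of 19. In the few 1 kb blocks covered in every library of the treatment (46 giant blocks treated, 35 untreated) the day difference was 3.51 points with the enzyme and 0.202 points without it, so the untreated sign turned. With all sites, 2 against 2 libraries cannot go below p = 0.333 in an exact permutation test, which is the value both differences had. The day difference with the enzyme exceeded that without it by 3.47 points (exact permutation of days within treated and within untreated libraries, p = 0.0556, the smallest possible). Genes of 20 to 100 kb showed the same signs, 1.58 points higher on day 1 with the enzyme and 1.09 points lower without it. The day difference of giant genes exceeded theirs by 0.32 points in treated libraries (exact permutation test, p = 0.333), and over sites with at least 4 reads that excess was -0.347 points.

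**Figure D1:**
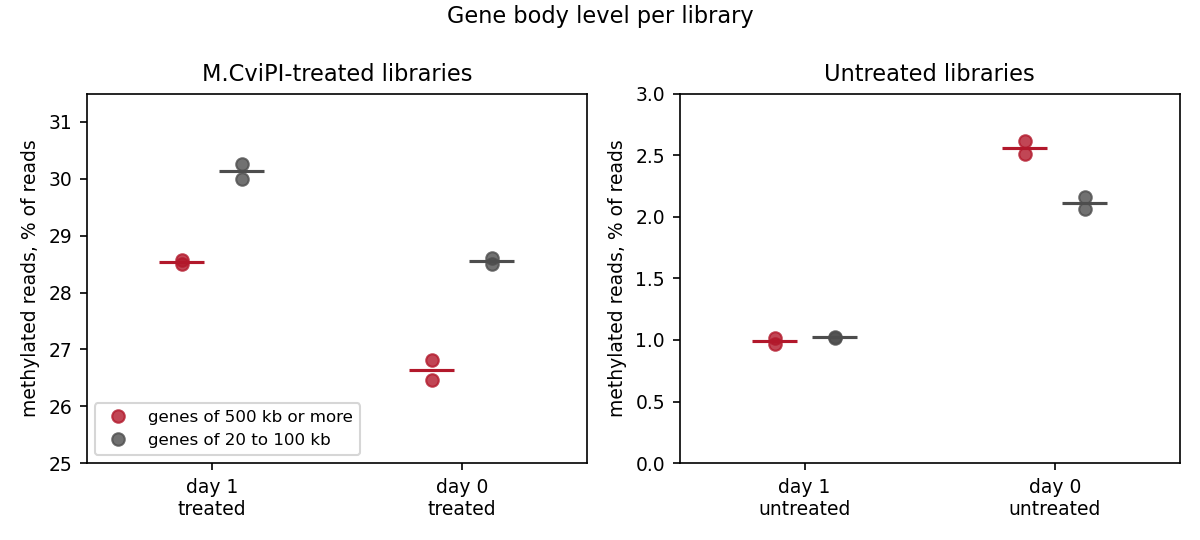
Methylated share of calls in gene bodies (y axis, percent of reads) for genes of 500 kb or more (red) and genes of 20 to 100 kb (grey), one point per library and a bar at the mean of the 2 libraries; the left panel's axis starts at 25%. Giant genes lie below the shorter genes in all 4 treated libraries and above them in both day 0 untreated libraries.

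Giant genes lay below genes of 20 to 100 kb in every treated library. The giant-gene level was lower by 1.75 and 1.43 points in the day 1 treated libraries and by 2.03 and 1.79 points in the day 0 treated ones, on average -1.75 points (exact sign-flip permutation test over 4 libraries, p = 0.13, the smallest possible). In untreated libraries the giant-minus-shorter difference was -0.00466 and -0.0581 points on day 1 and 0.547 and 0.346 points on day 0, on average 0.208 points (same exact test, p = 0.5). The treated deficit was seen on 18 of 19 autosomes on day 1, all but chromosome 13, and on 17 of 19 on day 0, all but chromosomes 7 and 18. It was -1.65 points when the shorter genes were weighted to the same number of covered sites per 1 kb block, and -1.79 points without the 1 kb blocks of more than 100 calls. Against genes of 100 to 500 kb it was -1.32 points. In 1 kb blocks covered in every treated library (46 in giant genes) it was -3.96 points, and in those covered in every untreated library (35) the untreated difference was 1.79 points.

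The treated level was lower in longer genes. In day 1 treated libraries it was 30.4% ± 0.27 under 5 kb, 30.4% ± 0.10 at 5 to 20 kb, 30.1% ± 0.18 at 20 to 100 kb, 29.7% ± 0.039 at 100 to 500 kb, 28.7% ± 0.065 at 500 to 750 kb, 28.5% ± 0.094 at 750 to 1000 kb and 28.3% ± 0.11 at 1000 kb or more (SD, n = 2 each). In day 0 treated libraries the same classes had 29.0% ± 1.46, 29.0% ± 0.15, 28.6% ± 0.073, 28.1% ± 0.19, 27.1% ± 0.058, 26.7% ± 0.18 and 25.9% ± 0.58. Sequence between genes had 29.9% ± 0.070 on day 1 and 28.5% ± 0.087 on day 0 in treated libraries, so the giant bodies were below intergenic DNA too. Untreated levels ran from 0.963% to 1.05% over all length classes on day 1 with no order, while on day 0 they climbed from 1.77% ± 0.19 under 5 kb to 2.59% ± 0.022 at 1000 kb or more. Untreated intergenic DNA had 1.22% on day 1 and 2.81% on day 0, above every length class on the same day. Length classes differ in coverage as well as length, and the part of coverage beyond the weighting above was not tested.

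**Figure D2:**
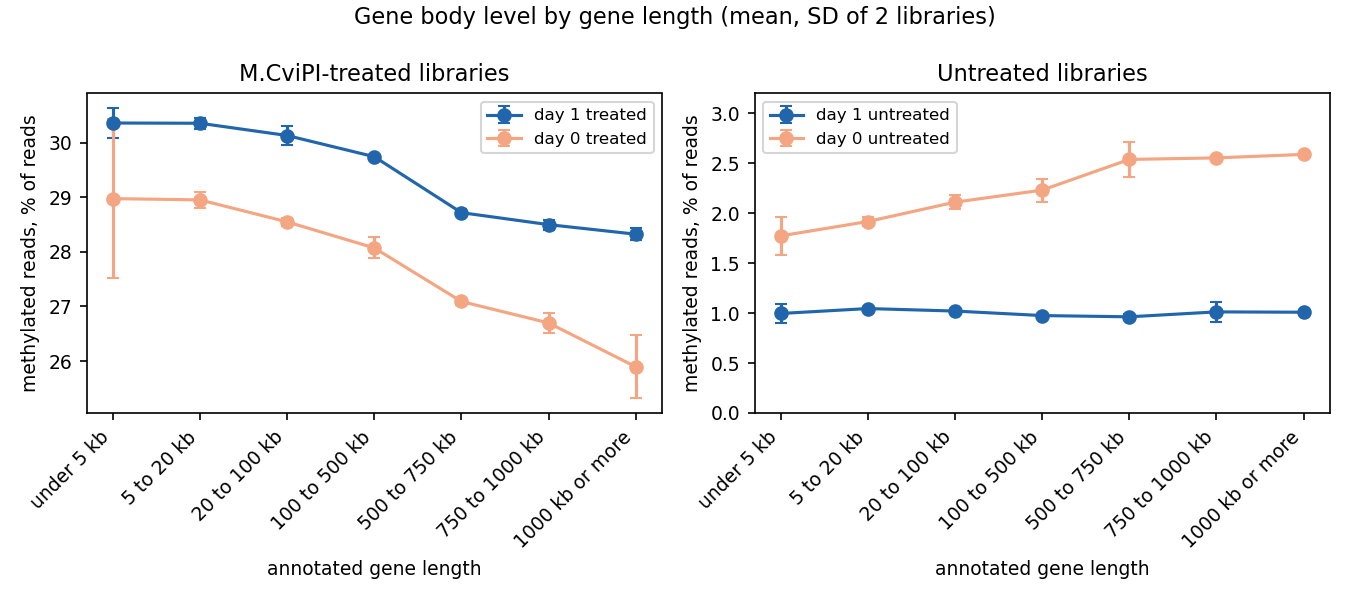
Gene body level (y axis, percent of reads, mean with SD of 2 libraries) by class of annotated gene length (x axis), with day 1 in blue and day 0 in orange, treated libraries left and untreated libraries right; the left axis does not start at 0. Treated levels step down with length, to 28.3% on day 1 and 25.9% on day 0 in genes of 1000 kb or more, and the day 0 untreated level steps up to 2.59%.

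The untreated level depended on how many covered sites lay together, in giant genes and in shorter ones. On day 0 giant genes had 5.54% ± 0.50 in 1 kb blocks with a single covered site. Blocks of 2 to 3 sites had 3.13% ± 0.19 and blocks of 4 to 6 sites 1.97% ± 0.063. Blocks of 7 to 10 sites had 1.63% ± 0.15 and blocks of over 10 sites 1.27% ± 0.057 (SD, n = 2). Genes of 20 to 100 kb on day 0 fell from 4.48% in single-site blocks to 1.57% in blocks of 7 to 10 sites, with 1.99% over 10. On day 1 the untreated level went from 1.69% in single-site blocks to 0.813% in blocks of over 10 sites in giant genes. In shorter genes it went from 1.81% to 1.01%. The giant-minus-shorter difference on day 0 was 1.06 points in blocks of a single site and -0.716 points in blocks of over 10 sites. Giant genes had 9.77% of their day 0 untreated calls in single-site blocks, against 5.04% in genes of 20 to 100 kb. The part of this coverage in the untreated difference was not tested beyond the same weighting, after which the difference over all 4 untreated libraries was 0.0997 points.

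Accessibility was higher at the ends of giant genes than inside them. Within 1000 bp on either side of both annotated ends the level was 34.1% and 33.6% in day 1 treated libraries and 30.5% and 35.7% in day 0 treated ones, on average 5.89 points above the body (exact sign-flip permutation test, p = 0.13, the smallest possible). Untreated ends had 1.27% and 0.509% on day 1 and 2.94% and 1.74% on day 0, on either side of the body level. The promoter table gives a start and strand for 169 giant genes. In 126 of them that start lay within 1000 bp of the annotated start of the gene. Over all 169, the window from 250 bp before to 50 bp after the start had 44.0% ± 0.48 on day 1 and 41.5% ± 3.09 on day 0 with the enzyme, and 1.46% ± 0.41 and 1.92% ± 0.63 without it (SD, n = 2 each, from 79 to 271 calls a library). Starts of 5796 genes of 20 to 100 kb had 55.9% ± 2.36 on day 1 and 61.1% ± 1.66 on day 0 in the same window with the enzyme, above the giant genes in every treated library. This comparison of starts was added after the giant-gene values were seen and carries no test. Beyond 10000 bp the giant-gene level with the enzyme was 28.3% to 28.6% on day 1 and varied more, from 26.1% to 28.2%, on day 0 in the 4 classes out to 500000 bp. Cut into 5 equal stretches from start to end, the bodies gave 28.9%, 28.2%, 28.7%, 28.5% and 28.3% on day 1 and 26.6%, 26.3%, 26.9%, 27.8% and 26.1% on day 0 with the enzyme. The promoter windows of giant genes held 13.7 such GpC cytosines per 100 bases, against 11.7 over all autosomal windows.

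**Figure D3:**
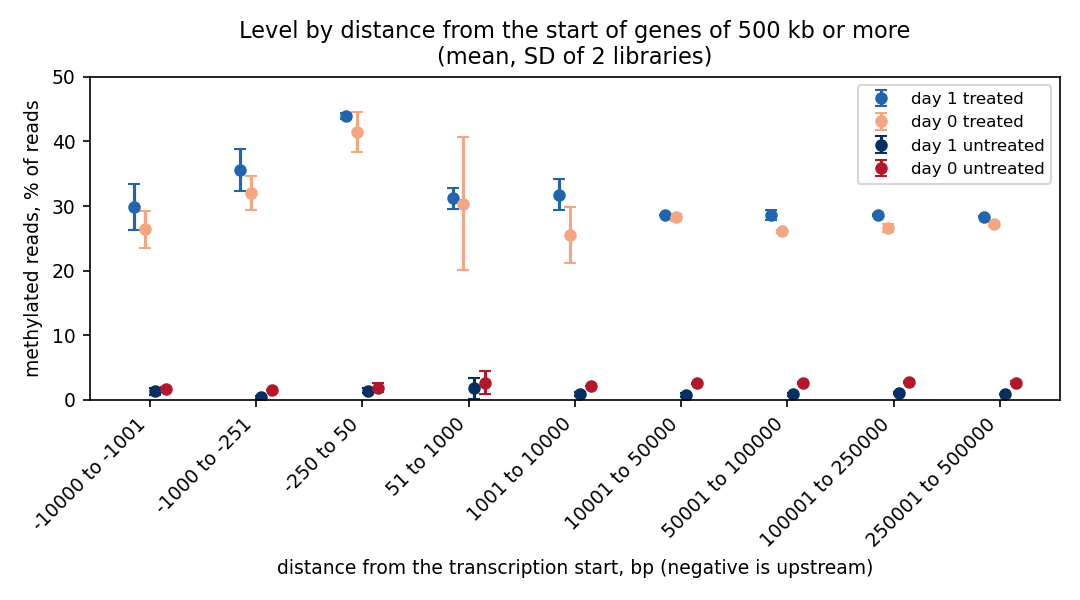
Level (y axis, percent of reads, mean with SD of 2 libraries) by distance from the transcription start of 169 giant genes (x axis, bp, negative upstream). In 126 of these genes that start lay within 1000 bp of the annotated start of the gene. With the enzyme the window at the start stands at 44.0% on day 1 and 41.5% on day 0, against about 26% to 29% deep in the body, and the means of the untreated libraries stay under 3%.

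With the enzyme, neighbouring cytosines in giant bodies were alike when close and opposed at 71 to 100 bp. They were alike again at over 160 and up to 190 bp, near the known spacing of nucleosomes. At 1 to 10 bp apart their fractions correlated with Pearson's r of 0.640 and 0.640 in day 1 treated libraries and 0.643 and 0.629 in day 0 treated ones. At 71 to 100 bp apart the correlation was -0.185 and -0.221 on day 1 and -0.153 and -0.143 on day 0, over 3976 to 6768 pairs. At over 160 and up to 190 bp apart it was 0.18 and 0.13 on day 1 and 0.263 and 0.0468 on day 0, over 656 to 1087 pairs. The swing between those distances, the far minus the near correlation, was 0.367 and 0.347 on day 1 and 0.416 and 0.190 on day 0. Day 1 minus day 0 was 0.0542 (exact permutation test, p = 1), and without day 0 treated replicate 2 it was -0.0591. At 71 to 100 bp the untreated libraries had 0.0615 and 0.179 on day 1 and 0.0832 and 0.0907 on day 0. At over 160 and up to 190 bp they had 0.0794 and 0.119 on day 1 and 0.0524 and -0.0548 on day 0. A positive far correlation was thus not particular to the enzyme. Untreated swings were 0.0179 and -0.0598 on day 1 and -0.0308 and -0.145 on day 0. Treated minus untreated the swing was 0.384 (exact permutation within days, p = 0.0556, the smallest possible).

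In genes of 20 to 100 kb the swing was 0.254 and 0.236 on day 1 and 0.185 and 0.164 on day 0 with the enzyme. The giant-gene swing was larger by 0.113 and 0.111 on day 1 and by 0.231 and 0.0253 on day 0, on average 0.120 (exact sign-flip permutation test, p = 0.13, the smallest possible). The excess depended on which sites entered. Over sites with at least 4 reads it was 0.424 (same exact test, p = 0.13, the smallest possible). In treated libraries 90.4% to 90.7% of giant-gene sites had exactly 3 reads, so that value rests on the few remaining sites. The excess was 0.0527 over adjacent sites alone (same exact test, p = 0.75) and 0.0638 against genes of 100 to 500 kb (p = 0.5). Without the 1 kb blocks of more than 100 calls it was 0.0880 (exact p = 0.25), with day 0 treated replicate 2 at 0.184 in giant genes and 0.194 in shorter genes. Pairs share reads and libraries, so these correlations describe the libraries and carry no p-value of their own.

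**Figure D4:**
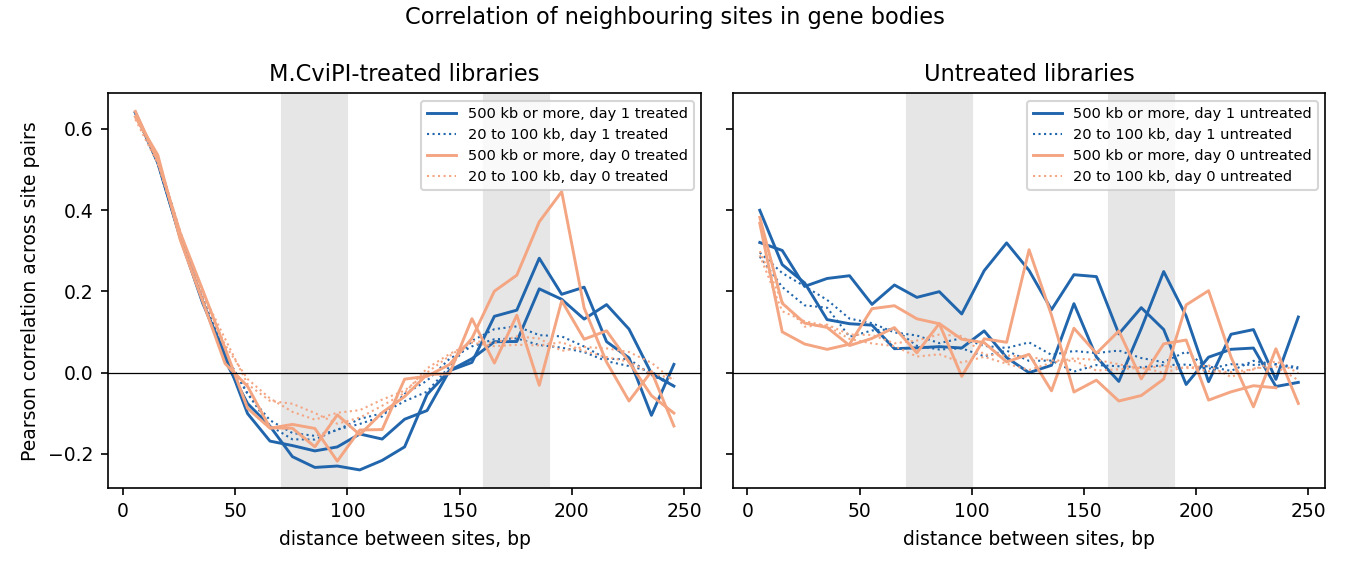
Pearson correlation of the methylated fractions of 2 cytosines (y axis) by the distance between them (x axis, bp), one line per library, solid for genes of 500 kb or more and dotted for genes of 20 to 100 kb, day 1 blue and day 0 orange, treated libraries left. Grey bands mark 71 to 100 bp and over 160 to 190 bp; over the first band every treated library has a negative correlation in giant genes and every untreated library a positive one.

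Single giant genes differed from each other by more than binomial counting of independent calls would give, but their order was poorly kept between libraries. Calls that share a read are not independent, so the true sampling error can exceed the binomial value. Differences between genes beyond that error are not shown by these values. Among those with 200 or more calls in the library, gene levels in treated libraries had an SD of 3.26 and 3.10 points on day 1 and 3.61 and 4.03 points on day 0, where binomial counting alone would give 2.16, 2.12, 2.28 and 2.26 points in that order of libraries. Over the 138 genes with 200 calls in every treated library, the 2 replicates of a day correlated across genes with r of 0.253 on day 1 and 0.155 on day 0, and the day means with r of 0.180. The correlation of log2 length with treated level was weak, r = -0.184 over the same 138 genes and -0.106 over all 215. Genes are not independent replicates, and these values describe the libraries.

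The longest member, Ptprd, a receptor tyrosine phosphatase of synapse formation, spans chr4:75941237-78211742 and had 24.6% and 25.1% on day 1 against 33.1% and 22.4% on day 0 with the enzyme. Cntnap2, a neurexin-family adhesion protein of axons on chr6:45060061-47301393, had 25.2% and 24.2% on day 1 against 25.6% and 27.0% on day 0. Lsamp, an IgLON adhesion protein, had 28.5% and 31.4% on day 1 and 23.3% and 19.8% on day 0. Both day 1 libraries were above both day 0 libraries in Lsamp and below them in Cntnap2, and the days of Ptprd overlapped.

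Lrp1b, an LDL receptor relative, had 26.2% and 28.0% on day 1 and 31.0% and 24.1% on day 0. Macrod2, an enzyme that removes ADP-ribose from proteins, had 28.2% and 28.9% on day 1 and 30.7% and 25.5% on day 0. Dlg2, a postsynaptic scaffold, had 30.9% and 32.3% on day 1 and 28.5% and 35.7% on day 0. In all of these the days overlapped. Csmd1, a complement regulator, had 27.2% and 29.9% on day 1 and 25.1% and 26.4% on day 0, and Nrxn3, a presynaptic neurexin, had 28.3% and 30.1% on day 1 and 26.1% and 25.5% on day 0. Fhit, a dinucleoside hydrolase encoded at a well-known fragile site, had 28.1% and 30.0% on day 1 and 24.2% and 26.7% on day 0. These last members stood higher in both day 1 libraries. Ctnna3, an alpha-catenin of cell junctions, overlapped between days, with 27.8% and 29.3% on day 1 and 31.0% and 23.8% on day 0. Untreated levels of the 10 longest genes ran from 0% to 1.52% on day 1, where the 0% is Nrxn3 in replicate 1 with 400 calls, and from 1.55% to 7.14% on day 0.

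Among the 138 well-covered giant genes the highest treated level was that of Pde4d, a cAMP phosphodiesterase on chr13:108654177-109955969, with 38.3% and 34.4% on day 1 and 29.6% and 33.3% on day 0. Pooled, its day 1 calls had an exact 95% binomial (Clopper-Pearson) interval of 33.6% to 39.3% and its day 0 calls one of 28.8% to 34.4%, which cover counting error only. Schip1, a cytoskeletal adaptor, had 34.9% and 35.2% on day 1 and 31.8% and 33.5% on day 0. Psd3, an exchange factor for the GTPase ARF6, had 35.2% and 33.6% on day 1 and 29.4% and 34.2% on day 0. Iqschfp had 32.3% and 33.1% on day 1 and 32.1% and 32.3% on day 0, but it contains all 561681 bp of Schip1, so these 2 genes are largely 1 measurement. Kcnq5, a voltage-gated potassium channel, was the fifth, with 28.4% and 34.0% on day 1 and 30.6% and 34.1% on day 0. Of these 5, Pde4d and Schip1 had both day 1 libraries above both day 0 libraries, and the days of the others overlapped.

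Among the lowest was Adarb2, an RNA-editing family member, with 26.1% and 28.6% on day 1 and 21.0% and 19.7% on day 0. Both day 1 libraries stood above both day 0 libraries. Tmem132d, a transmembrane protein, had 19.5% and 26.3% on day 1 and 22.8% and 26.9% on day 0, and Hdac9, a class IIa histone deacetylase, had 22.4% and 24.9% on day 1 and 28.6% and 20.7% on day 0. Atrnl1, an attractin relative, had 26.5% and 26.4% on day 1 and 21.8% and 22.2% on day 0. A single 1 kb block held 38.7% to 63.0% of its treated calls, and without blocks of more than 100 calls Atrnl1 had 28.8% and 28.1% on day 1 and 27.1% and 27.5% on day 0. These genes were picked as extremes, and their levels carry no test.

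By gene, 149 of 215 giant genes had a higher mean on day 1 with the enzyme, and 207 had a lower mean on day 1 without it. Both day 1 libraries lay above both day 0 libraries with the enzyme in 81 of 214 giant genes with 20 calls in each treated library (37.9%), where 24% of all 5401 genes tested did, and both lay below in 20 (9.35%), where 12.2% of all genes did. Without the enzyme both day 1 libraries lay below in 150 of 211 (71.1%), where 33.3% of all 5100 genes did, and above in 2, Cpq and Fgf12 (0.948%), where 5.18% of all genes did. Giant genes carry more calls than most genes and so have less counting error, and its part in these shares was not tested.

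**Figure D5:**
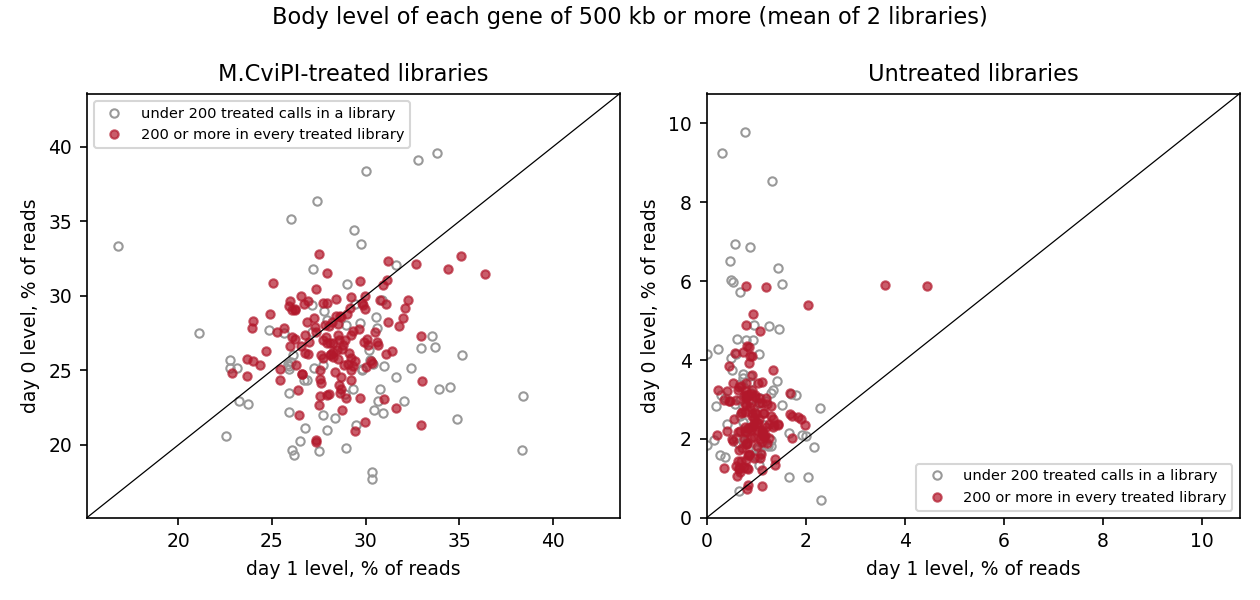
Body level of each of the 215 giant genes on day 1 (x axis) and day 0 (y axis), percent of reads, mean of 2 libraries, treated left and untreated right, with filled points for the 138 genes with 200 or more calls in every treated library and a line of equality. Points scatter widely around the line with the enzyme, and without it nearly all (207) lie on the day 0 side.

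With the enzyme, no gene passed the test between days. edgeR's quasi-likelihood test on methylated and unmethylated counts called 0 of 5401 genes (0% higher, 0% lower at a Benjamini-Hochberg adjusted p of 0.05) and 0 of 214 giant genes; 191 genes and 7 giant genes had an unadjusted p under 0.05, and limma on log2 odds called 0 as well. In simulated data with this coverage the test found 26% of 50 giant genes made to differ by 1 on the log2 odds scale and 0% of 50 made to differ by 0.5, with 2 libraries a group and an assumed SD of 0.2 in natural log odds. Of 50 other genes per size it found 4% and 0% in that order. The median change was 0.14 in giant genes and 0.12 in all genes tested. The giant genes with the smallest p on the higher side were Dpp6, Unc13c, Nlgn1, Zbtb20 and Ralyl, and on the lower side Arhgap15, Kcnma1, Cntnap5b, Rabgap1l and Nell1, all with an adjusted p of 0.999. Dpp6, an auxiliary subunit of potassium channels, had 33.8% and 32.2% on day 1 against 18.6% and 24.1% on day 0 (log2 odds change 0.85). Unc13c, a synaptic vesicle priming factor, had 35.0% and 41.7% on day 1 against 25% and 14.3% on day 0, from 84 to 234 calls. Nlgn1, a postsynaptic neuroligin, had 26.4% and 34.3% on day 1 against 20.1% and 15.2% on day 0. Zbtb20, a zinc finger repressor, had 35.4% and 34.4% on day 1 against 24.3% and 19.1% on day 0. These genes had non-overlapping days, yet none passed the adjustment over all genes.

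Without the enzyme, many giant genes passed the test for a lower level on day 1, while the level of all genes was lower too. edgeR called 68 of 211 giant genes lower on day 1 (32.2%) and 0 higher, where 4.76% of all 5100 genes were called lower and 0.098% higher. In simulated data, with most genes unchanged, a log2 change of 2 was found in 28% of changed giant genes and 2% of other changed genes. Giant genes carry more calls than most genes, and the part of this in the shares called was not tested. The median log2 odds change was -1.44 in giant genes and -1.01 over all genes tested. With each library centred on its own overall level, 0 giant genes were called (39 had an unadjusted p under 0.05). The giant-gene median was then -0.41, against -0.08 over all genes tested. Overall level in this centring means the median log odds of the genes tested, computed with a pseudocount, and not the pooled level. Fitted on the 4 untreated libraries alone, 6 giant genes were called, limma called 105, and leaving out 1 library gave 35 to 45.

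Sox5, an SRY-related factor of cartilage and neurons, had the smallest p (log2 odds change -1.67, adjusted p = 2.88e-05 by edgeR), with 0.902% and 0.864% on day 1 and 2.33% and 3.27% on day 0 in untreated libraries. Tafa1, a secreted neuronal protein, had 0.741% and 0.390% on day 1 and 3.59% and 4.75% on day 0. Cntnap2 had 0.998% and 0.644% on day 1 and 2.42% and 3.75% on day 0. Nav2, a microtubule-associated navigator, and Pard3, a polarity protein of tight junctions, followed, Nav2 with 0.932% and 0.777% on day 1 and 2.71% and 5.16% on day 0, and Pard3 with 0.392% and 0.504% on day 1 and 2.07% and 3.87% on day 0. In each of these 5 genes both day 1 libraries were below both day 0 libraries. On the higher side Fgf12, Cpq, Rbfox1, Naaladl2 and Clstn2 came first and none was called (adjusted p 0.501 to 0.90 by edgeR). Cpq, a peptidase, had 2.45% and 1.66% on day 1 and 0.862% and 1.19% on day 0. Fgf12, an intracellular fibroblast growth factor homologue, had 1.06% and 3.57% on day 1 and 0.885% and 0% on day 0, the last from 78 calls.

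The 68 genes, none of them called with centred libraries, came from all 8 groups of genes considered. The counts below stand beside 32.2% of all giant genes tested and 4.76% of all genes, and most are near the share of giant genes. On the list of neuronal adhesion genes (neuronal and synaptic cell-surface adhesion) 16 of 45 were called, with a median change of -1.53. These were Cntnap2, Cntnap5b, Cntn4, Nrxn3, Nlgn1, Dscam, Tenm2, Ptprd, Ptprt, Cdh12, Unc5d, Adgrl3, Nrg1, Csmd1, Dpp6 and Dpp10. The list is loose and also holds genes given other roles here, such as Dpp6, a potassium channel subunit, and Csmd1, a complement regulator. Of genes known from common fragile sites in human or mouse 13 of 22 were called, among them Fhit, Wwox, Macrod2, Immp2l, Ctnna3, Dlg2, Dab1, Dpyd, Auts2, Pard3b and Cntnap2, with a median of -1.67. Their median length of 1262400 bp was above that of all giant genes. Of ion channel and receptor genes 4 of 15 were called (among them Grm8, Cacna1c and Cacna2d3), of synaptic scaffold genes 5 of 16 (Dlg2, Erc2, Anks1b, Sorcs3 and Sntg1), of transcription and RNA-binding genes 7 of 20 (Foxp1, Auts2, Mecom, Zfhx3, Npas3, Sox5 and Hdac9) and of cytoskeleton and junction genes 8 of 18 (Ctnna2, Ctnna3, Sgcd, Syne1, Nav2, Pard3, Pard3b and Dock2). Of genes known in fibroblasts 9 of 25 were called (Pard3, Pard3b, Prkg1, Ptprg, Sgcd, Plcb1, Nav2, Foxp1 and Adamtsl1), and of genes known in endothelial cells 4 of 7 (Mecom, Ptprm, Plcb1 and Pard3). A gene can stand on several lists. On no list but called were Alk, Atrnl1, B3galt1, Cdkal1, Edil3, Etl4, Gpc5, Hpse2, Hs6st3, L3mbtl4, Nckap5, Psd3, Rgs6, Samd12, Tafa1 and Thsd7b.

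Treated levels of the groups lay close together. With the enzyme the neuronal adhesion genes had 28.1% ± 0.59 on day 1 and 26.1% ± 0.45 on day 0, the fragile site genes 28.5% ± 0.97 and 26.8% ± 0.35, the ion channel genes 28.7% ± 0.65 and 27.3% ± 0.19, the synaptic scaffold genes 29.1% ± 0.31 and 26.3% ± 0.29, and the transcription and RNA-binding genes 28.7% ± 0.36 and 26.9% ± 0.63 (SD, n = 2 each). Cytoskeleton and junction genes had 29.1% ± 0.61 on day 1 and 26.8% ± 0.071 on day 0. Genes known in fibroblasts, the starting cells, had 28.6% ± 0.20 on day 1 and 27.0% ± 0.40 on day 0, with 20 of 25 higher on day 1. Genes known in endothelial cells, the fate Etv2 drives, had 29.0% ± 0.88 on day 1 and 25.9% ± 0.62 on day 0, with 6 of 7 higher on day 1, where 149 of 215 giant genes were. All of these pooled levels lay within 28.1% to 29.1% on day 1 and 25.9% to 27.3% on day 0, and 0 members of any list were called with the enzyme.

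Set against each other, the treated and untreated day differences gave 65 of 211 giant genes with a higher net change (30.8%) and 0 with a lower one, where 5.21% of 4111 genes tested were called higher and 0% lower. The part of the number of calls per gene in these shares was not tested. Of the 65 genes 58 were also among the 68 above, and the other 7 were Cdh13, Dlgap1, Fam155a, Galntl6, Pkhd1, Robo1 and Unc13c. Both tests use the same untreated counts, so part of this overlap was built in. The genes called without the enzyme but not here were B3galt1, Cdh12, Dlg2, Dock2, Hdac9, Immp2l, Ptprd, Ptprg, Samd12 and Zfhx3. Sorcs3, a sorting receptor of neurons, had the smallest p (net log2 odds change 3.31, adjusted p = 0.000399 by edgeR), with treated levels of 26.9% and 30.7% on day 1 and 21.0% and 29.6% on day 0, and untreated levels of 0.618% and 0.199% on day 1 and 2.95% and 3.47% on day 0. Ctnna2, an alpha-catenin of neurons, had 29.9% and 27.6% on day 1 and 20.6% and 24.2% on day 0 with the enzyme, and 0.388% and 1.12% on day 1 and 3.70% and 2.46% on day 0 without it. Pard3, Sox5 and Nav2 followed, with net changes of 2.78, 1.77 and 2.41. On the lower side Cpq, Fgf12, Rbfox1, Clstn2 and Kalrn came first and none was called. In giant genes the median log2 odds change was 0.14 with the enzyme and -1.44 without it, and 0 were called with the enzyme alone. The net change is therefore mostly the untreated change with its sign turned. The median net change was 1.71 in giant genes and 1.18 over all genes tested. With each library centred on its own overall level 0 giant genes were called and the median was 0.52, limma called 10, and leaving out 1 library gave 7 to 48, lowest without day 1 treated replicate 2 and next, at 9, without day 1 treated replicate 1.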

How the data were processed

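NOMe-seq of mouse embryonic fibroblasts was analysed in 8 libraries, 4 groups of 2. The deposited files list cytosines with a methylated fraction (2 decimals) and a read count, at least 3 reads a site; the build is mm10, per the submitters' processing notes. For the aligner, methylation caller, conversion rate and duplicate removal, the entry is: not given in the sources used here. Files held 439527 to 1012656 sites and 1693307 to 3577740 calls.

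Methylated reads were recovered as the fraction times the count, rounded. Sites over 100 reads were left out. Gene spans and promoter sequences came from RefSeq (GRCm38.p6), matched to each other by gene identifier. Body levels pooled all calls more than 1000 bp inside both ends. Levels were compared between libraries by exact two-sided permutation. Genes with at least 20 calls in each library compared were tested with edgeR 4.0.16 (quasi-likelihood, methylated and unmethylated counts, a term per library) and, as an alternative, limma 3.58.1 (log2 odds, pseudocount 1), in R 4.3.3, with Benjamini-Hochberg adjustment over all genes. Other steps used Python 3.11.15, numpy 2.4.6, pandas 2.3.3, scipy 1.17.1 and matplotlib 3.10.9. The edgeR step was tested on simulated data with 50 giant genes changed per size: without the enzyme it found 28% at a log2 change of 2 and 0% at 1 (5100 genes), for the net change 4% at 2 and 2% at 1 (4111 genes), with 0 false calls. Of 50 other genes changed per size it found 2% at 2 and 0% at 1, both without the enzyme and for the net change. The simulated untreated libraries had the same base level on both days and most genes unchanged, unlike the data. These shares and false calls therefore do not describe data in which most genes shift together.

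Named genes are the 10 longest, the 5 highest and 5 lowest treated levels among genes with 200 calls in every treated library, the 5 smallest p in each direction of each edgeR comparison, and every giant gene called; some of these are not reported here by name, but stay in all counts and pooled levels. The giant genes and the 8 gene lists were chosen with earlier results of these data known. Overlapping giant genes stay separate in gene counts, among them Schip1 within Iqschfp and genes of chromosome 18 that share 868072 to 874243 bp. Replicate numbers were not taken to pair libraries: deviations of same-numbered libraries from their group means correlated at 0.004 to 0.129 over 215 genes. Intervals and floors cover counting error only, since duplicates and molecules cannot be told apart in these files. Giant genes of the X chromosome were outside the rule and are given separately.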

Additional observations from a re-analysis of the deposited data

Results flagged for a closer look

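The day difference of giant gene bodies took opposite signs with and without the enzyme: day 1 minus day 0 was 1.90 points in treated libraries and -1.57 points in untreated ones, a difference of 3.47 points (exact permutation test, p = 0.0556, the smallest possible with 2 libraries a group). In 1 kb blocks covered in every library of the treatment both signs were positive, 3.51 and 0.202 points, and in the 6 giant blocks covered in all libraries the difference was 4.62 points (exact permutation test, p = 0.167). By gene, edgeR called 65 giant genes of 211 for the same difference on the log2 odds scale, where 5.21% of all genes tested were called. On that scale the giant-gene median was 0.14 with the enzyme and -1.44 without it, and 0 giant genes were called with the enzyme alone. For the difference edgeR called 0 with each library centred on its overall level, 7 without day 1 treated replicate 2 and 9 without day 1 treated replicate 1, and limma called 10.

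The 11 giant protein-coding genes of the X chromosome, Tenm1, Fgf13, Aff2, Dmd, Il1rapl1, Dach2, Pcdh11x, Diaph2, Il1rapl2, Frmpd4 and Arhgap6, were outside the autosomal rule and gave signal above the untreated libraries. Their pooled level was 30.0% ± 2.81 on day 1 and 31.4% ± 1.43 on day 0 with the enzyme, and 1.32% ± 0.50 on day 1 and 5.02% ± 1.48 on day 0 without it (SD, n = 2 each). Dmd, which encodes dystrophin, had 29.5% and 27.4% on day 1 and 33.0% and 19.7% on day 0 with the enzyme.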

How the results depend on the processing

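Of the results that answer a comparison, leaving aside the fits without 1 library, 129 values under alternatives were counted as kept, 5 as moved and 2 as reversed. For the exact permutation results kept refers to direction only, because so few libraries cannot bring their p-values under the threshold. Their p-values could rise and still count as kept. That of the enzyme's swing rose from 0.0556 to 0.333 over sites with at least 4 reads (exact permutation within days). For edgeR the count refers to the number of giant genes called. Over sites with at least 4 reads the treated day difference of giant minus 20 to 100 kb genes was -0.347 points. In 1 kb blocks covered in all untreated libraries (35 giant blocks) the untreated day difference was 0.202 points. For giant genes called, edgeR without the enzyme gave 68; limma gave 105, centred libraries 0 and only the compared libraries 6. For the net change edgeR gave 65, limma 10 and centred libraries 0. The cause was not tested. Blocks of more than 100 reads and weighting by sites per block were alternatives chosen after seeing the data.

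Leaving out 1 library gave 25.73 to 25.9 points for the enzyme, 1.73 to 2.08 for the treated and -1.62 to -1.52 for the untreated day difference, 3.30 to 3.64 for the net, -1.86 to -1.66 (treated) and 0.0945 to 0.296 (untreated) for giant minus shorter genes and 0.160 to 0.482 for its day difference. The swing gave -0.0591 to 0.167 between days, 0.0831 to 0.152 against shorter genes and 0.328 to 0.441 for the enzyme; ends minus body gave 4.87 to 6.51 points. The swing between days was below 0 without day 0 treated replicate 2. Calls were 0 to 0 treated, 35 to 45 untreated and 7 to 48 net.

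With the replicate block, which pairs same-numbered libraries, the level differences could not change, since pairing leaves a difference of means as it is. Fewer arrangements were possible, and the exact permutation p of the net day difference rose from 0.0556 to 0.5. It rose to 0.5 for treated giant minus shorter genes, rose for the enzyme too, and stayed at 0.5 for untreated giant minus shorter genes. In this setting edgeR called 55 giant genes without the enzyme, 49 for the net change and 0 with the enzyme.

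Of values of genes named here, 1129 kept direction and side of the threshold, 695 lost their call and 15 reversed. On the log2 odds scale, without the enzyme these were Clstn2 -0.32 (limma), and for the net change Clstn2 0.0774 and Kalrn 0.20 (limma), Cdh13 -0.12 (centred). With 1 library left out, the ranges without the enzyme were -5.11 to 1.32 for Edil3, -3.80 to 3.59 for Sntg1, -0.27 to 0.90 for Rbfox1 and -1.32 to 1.03 for Clstn2. For the net change they were -0.86 to 5.61 for Edil3, -3.18 to 4.26 for Sntg1, -0.95 to 0.21 for Rbfox1, -1.26 to 1.09 for Clstn2 and -0.94 to 0.32 for Kalrn. Adjacent sites alone gave no value for the enzyme's swing.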

Other observations

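Mdga2, an adhesion regulator at synapses, and Robo2, a receptor of Slit ligands, had over 3% in both day 1 untreated libraries and were singled out after their values were seen. Mdga2 had 5.45% and 3.47% on day 1 and 7.06% and 4.69% on day 0 without the enzyme, and Robo2 3.92% and 3.28% on day 1 and 6.33% and 5.49% on day 0. In each gene the same 1 kb block led in all 4 untreated libraries. The Mdga2 block held 25 of 26 and 14 of 14 methylated calls on day 1 and 21 of 24 and 18 of 20 on day 0. The Robo2 block held 65.5% and 84.6% of methylated calls on day 1 and 71.4% and 80.0% on day 0. Without those blocks Mdga2 had 0.746% and 0% on day 1 and 3.70% and 1.55% on day 0, and Robo2 2.03% and 1.04% on day 1 and 2.84% and 2.22% on day 0.

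In 6 giant genes, Nkain3, Skint5, Grm5, Mdga2, Robo2 and Atrnl1, a single 1 kb block held over 20% of treated calls in every treated library.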
